A study of Homo sapiens with 4 samples.

Results

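Tumor cells of the acinar and the solid histological type, both grown from the human lung adenocarcinoma line A549 as xenografts in immunodeficient mice and cut out by laser microdissection, were compared gene by gene. The comparison takes the 2 libraries titled Acinar and Solid, 1 of each, out of 4 libraries in the series. The other libraries come from GFP-labelled A549 cells sorted out of 3D tumor colonies, grown alone (single culture) or with cancer-associated fibroblasts (mix culture, read as the one with fibroblasts because no other second condition is described). They are used here for levels beside a tumor value, for 1 value of a chromosome region and for 1 comparison at the end. All 4 libraries share the cell line, and none of the groups carries a described gene change apart from the GFP label of the cultured cells.

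The mouse strain, the age of the animals, the age of the tumors, and whether fibroblasts were injected with the tumor cells are unstated (not given in the sources used here). Also unstated is whether the acinar and solid cells came from 1 tumor, from 1 animal or from several. The histological type, the tumor and the animal therefore cannot be told apart. Each group is 1 library, so the differences below were not tested for replication and carry no p-value. The characteristics label of the acinar sample lacks its first letter, so the groups were taken from the titles.

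In lung adenocarcinoma an acinar area forms glands with a lumen, while a solid area grows as sheets without glands. The study's title ties this difference to TGF-β signaling set off by cancer-associated fibroblasts, the fibroblasts of the tumor stroma. TGF-β is secreted in a latent complex, is released from it by integrins and thrombospondin, and signals through receptor kinases and SMAD proteins. In epithelial cells it is known for inducing extracellular matrix, contractile and protease genes, and in some settings a loss of epithelial junctions.

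In these libraries the acinar tumor had higher levels of many TGF-β-induced, basement membrane, actin-cytoskeleton, chemokine and cholesterol synthesis genes. Of 9 stratified keratins 4 were past 2-fold higher and 1 lower, with 5 above and 4 below 0. The acinar tumor had lower levels of fibrinogen and other liver-type secreted proteins, of gastrointestinal epithelial genes and of hypoxia-induced genes. By a smaller margin it also had lower levels of ribosomal protein genes. Epithelial junction genes and proliferation genes had no member past 2-fold in either direction. Over all genes the shares were also small, 1.98% higher and 2.55% lower, so these counts lie close to them. IL11, a cytokine gene that TGF-β induces, was at 14.1 scaled counts in the acinar and 2.10 in the solid library, and CA9, a carbonic anhydrase gene induced by low oxygen, was at 17.8 scaled counts in the acinar and 127 in the solid library. A scaled count is the deposited value divided by 1 constant common to all libraries, so that each library sums to about 1000000. Scaled counts are not per gene length, and levels are therefore compared within a gene and not between genes.

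Over all genes most ratios were close to 0. A ratio is the log2 of acinar over solid after adding 1 to each scaled count, and 13979 of 26255 gene symbols were counted because they reached 1 scaled count in at least 1 tumor library. Of these, 277 (1.98%) were 2-fold or more higher in the acinar tumor and 357 (2.55%) were 2-fold or more lower. The counts of each list below are to be read beside these shares. The ratio lay above 0 for 50.8% of the genes and below 0 for 49.2%, with a median of 0.01, and 81.1% of the genes lay within 0.5 of 0 on the log2 scale. At 4-fold or more there were 23 higher and 30 lower genes. The lower genes were at smaller levels: the median of the larger of their tumor values was 6.15 scaled counts, against 13.02 for the higher genes, and 154 of the lower and 85 of the higher genes stayed below 5 scaled counts in both libraries. With a pseudocount of 5 in place of 1 the counts were 114 higher and 101 lower. The estimated depth was 6630000 fragments in the acinar and 7270000 in the solid library, so 3 fragments, the upper limit that a count of 0 allows, correspond to 0.465 and 0.420 scaled counts.

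**Figure D1:**
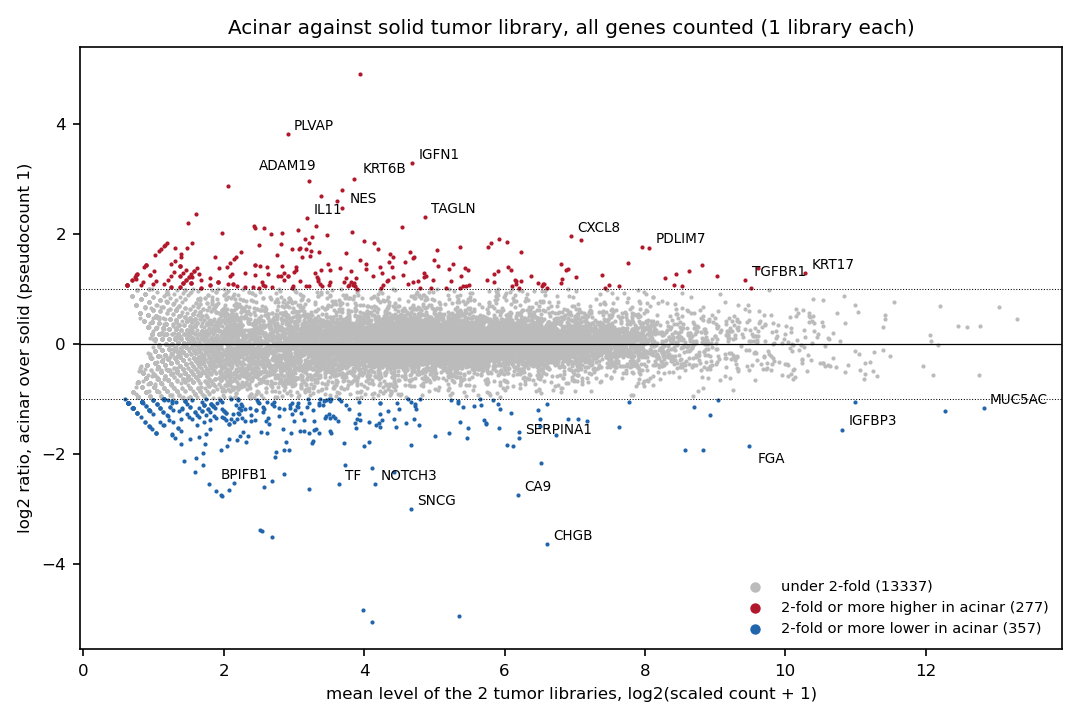
Each point is 1 counted gene, with genes of the Y chromosome left out of the drawing; the horizontal axis is the mean level of both tumor libraries as log2(scaled count + 1) and the vertical axis the log2 ratio of acinar over solid. Red points are the 277 genes 2-fold or more higher in the acinar tumor and blue points the 357 lower ones, and most of the remaining genes lie near the zero line at every level.

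The defining markers of epithelial cells were present in both libraries. All 8 epithelial markers, among them EPCAM and the keratins of simple epithelia, were counted, and together they summed to 12050 scaled counts in the acinar and 10276 in the solid library. CDKN2A, a tumor suppressor gene that A549 cells are known to lack, was listed at 0 in the acinar library and at 0.140 scaled counts in the solid one. The lung lineage factor NKX2-1 had 0.155 scaled counts in the acinar library and 0 in the solid one, and the surfactant gene SFTPA1 had 0 and 0.140. Of 26 alveolar and airway markers 11 were counted, and these are described below. The values are listed by human gene and hg19 is a human build, while the host cells are mouse cells, so the marker values below do not measure how much host tissue was cut out with the tumor.

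Of 15 fibroblast markers 7 were counted, and 5 (COL6A3, PDGFRA, POSTN, THY1 and DPT) were listed at 0 in both tumors. Their sum was 676 scaled counts in the acinar and 300.0 in the solid library, and most of it came from 1 gene, MFAP5, a microfibril protein gene at 563 scaled counts in the acinar and 225 in the solid library. LUM, which encodes the proteoglycan lumican, followed at 55.4 against 19.6 scaled counts. Collagen genes that fibroblasts express abundantly did not share that difference: COL1A1 was at 30.7 against 32.3 scaled counts, COL1A2 at 0.155 against 0.280 and COL3A1 at 0.310 against 1.12. Endothelial markers summed to 75.7 and 71.7 scaled counts, with PECAM1, CDH5, VWF and KDR below 1 scaled count in both tumors. Macrophage and granulocyte markers summed to 149 and 242, led by CD68 at 113 against 175 scaled counts, a lysosomal gene that other cells express too. Lymphoid, erythroid, and muscle and fat markers summed to less than those, at most 4.34, 0.420 and 14.8 scaled counts in a tumor library. In bulk RNA such as this, fewer cells of a type and less RNA per cell cannot be told apart. The part that any admixture of cells has in the gene groups below was not tested.

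The TGF-β pathway was described from its ligands to its induced genes. Of 66 members counted, 19 were 2-fold or more higher (1.98% over all genes) and 1 was lower (2.55% over all genes); 51 lay above 0 and the list median was 0.41, against 0.01 over all genes. None of the 7 ligand genes counted passed 2-fold. TGFB1, the main ligand, was at 33.6 scaled counts in the acinar and 32.0 in the solid library, a ratio of 0.07. The largest differences among ligands were those of BMP2, a bone morphogenetic protein gene, at 15.8 against 9.23 scaled counts, and TGFB3, the isoform with the lowest ratio, at 2.79 against 5.31 scaled counts. The ligand genes therefore had ratios on both sides of 0, with a median of -0.11.

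Genes that release the ligand from its latent form had higher values in the acinar tumor. THBS1, encoding the activator thrombospondin 1, was at 96.9 scaled counts in the acinar and 37.8 in the solid library, 2.57-fold higher (2.22 to 2.97); the brackets give the exact 95% interval of the plain ratio of fragments, which covers counting error only. ITGAV, the integrin chain common to the integrins that activate TGF-β, was at 496 against 241 scaled counts, 2.06-fold higher (1.94 to 2.19). Its epithelial partner ITGB6 was at 7.13 against 2.94 scaled counts, 2.43-fold higher (1.42 to 4.28). These 3 were the members past 2-fold among 9 counted, while LTBP1, which tethers the latent complex to matrix, was at 57.8 against 50.2 scaled counts and LRRC32, which holds it on cell surfaces, at 3.41 against 6.15 scaled counts.

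Among 8 receptor genes 1 passed 2-fold: TGFBR1, the type I receptor kinase, at 955 scaled counts in the acinar and 426 in the solid library, 2.24-fold higher (2.15 to 2.34). Both values were well above those of the cultured cells, at 67.1 and 61.1 scaled counts. TGFBR3, the co-receptor betaglycan, was at 10.2 against 13.7 scaled counts. Among 13 transducers and inhibitors 12 lay above 0 but only PMEPA1, a feedback inhibitor induced by the pathway, passed 2-fold, at 1129 against 437 scaled counts; its fragments were not whole and it is given without an interval. SMAD2, a receptor-activated SMAD, was at 135 against 128 scaled counts, and SKI, a co-repressor, at 32.2 against 32.4 scaled counts.

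Induced genes carried most of the list, with 14 of 30 past 2-fold higher, 1 lower, 26 above 0 and a median of 0.91. The list was chosen with earlier results of these data known, so these counts describe it and do not test the pathway. FN1, fibronectin, which TGF-β induces in many cells, is counted in another list below and was past 2-fold lower. IL11 was 6.73-fold higher (3.87 to 12.5). TAGLN, the actin-binding protein transgelin, was at 47.4 against 8.81 scaled counts, 5.39-fold higher (4.09 to 7.18). CTGF, a matrix-associated growth factor gene, was at 101 against 27.5 scaled counts, 3.68-fold higher (3.13 to 4.34). These genes differed in what the cultured cells showed: IL11 had 9.60 scaled counts in single culture and 72.5 in mix culture, while TAGLN was at 1.87 and 1.05, below both tumors. PDGFB, a growth factor for fibroblasts and pericytes, was at 34.1 against 11.6 scaled counts, 2.94-fold higher (2.27 to 3.83), and in the cultures it stayed at 0.267 and 0.403. SPHK1, the kinase that makes sphingosine 1-phosphate, was at 30.4 against 9.09 scaled counts, 3.34-fold higher (2.51 to 4.50). ADAM19, a membrane metalloprotease gene, was at 15.5 against 1.12 scaled counts, 13.9-fold higher (6.77 to 33.0). MMP2, the gelatinase gene, was at 21.9 against 4.61 scaled counts, 4.74-fold higher (3.22 to 7.15). For ADAM19 and MMP2 the acinar value was the one closer to the cultures, which were at 94.1 and 126 for ADAM19 and at 113 and 102 for MMP2. Other induced genes past 2-fold higher included COL4A1, COL4A2, COL7A1, TPM1, WNT7A and WNT11. TGFBI, a secreted matrix protein gene, was at 503 against 418 scaled counts, 1.201-fold higher (1.14 to 1.26). ANGPTL4, an inhibitor of lipoprotein lipase that is also induced by low oxygen, was the member past 2-fold lower, at 50.1 against 161 scaled counts, 3.21-fold lower (2.84 to 3.64).

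IL11 belongs to the IL6-type cytokines, which signal through the shared receptor chain IL6ST. It was the only 1 of 18 members past 2-fold. IL6 itself was near the detection limit, at 0.465 against 0.420 scaled counts, and LIF, another ligand, was at 102 against 117 scaled counts. The receptor genes had close values in both tumors: IL11RA had a ratio of 0.01, and IL6ST was at 104 against 107 scaled counts and IL6R at 12.9 against 17.1. SOCS1, a feedback inhibitor, had the highest ratio among transducers and targets, at 2.64 against 0.839 scaled counts.

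**Figure D2:**
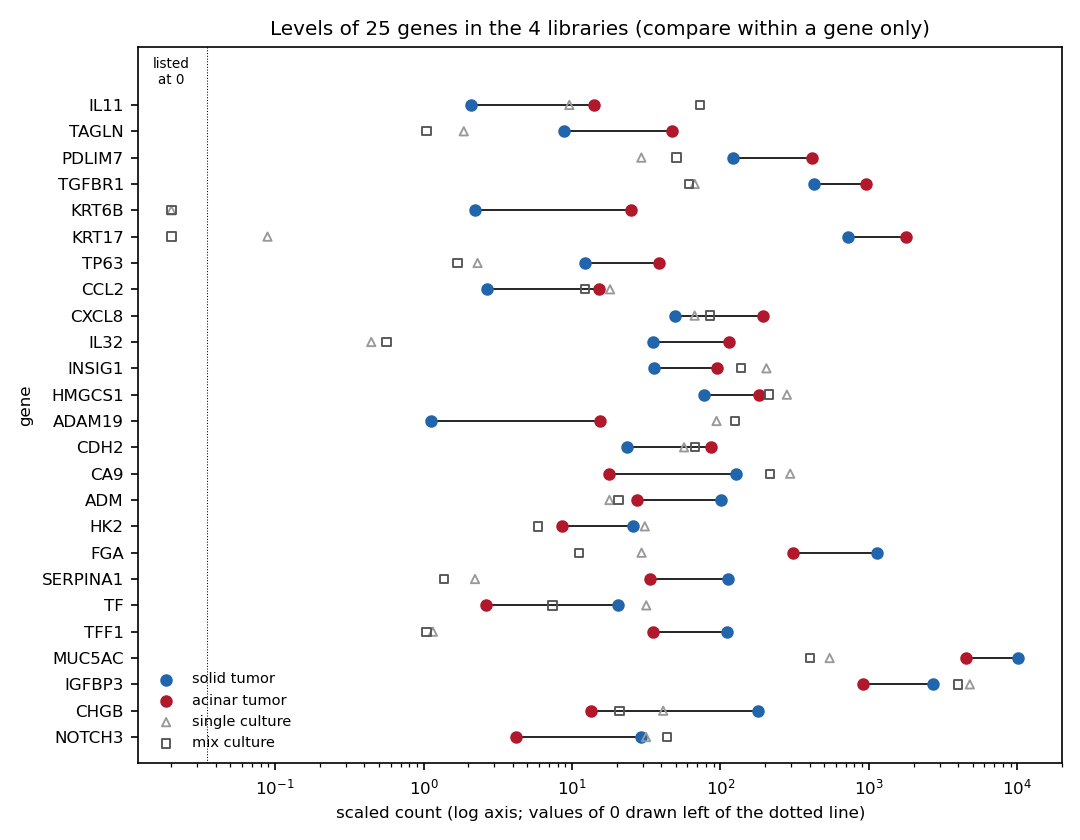
Scaled counts of 25 genes named in the text on a log axis, with filled blue circles for the solid tumor, filled red circles for the acinar tumor and open symbols for the cultures; a line joins both tumor values. From IL11 to CDH2 the acinar value is the higher one and from CA9 to NOTCH3 the solid value is, and KRT6B and KRT17 are at or near 0 in the cultures.

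Actin cytoskeleton genes were higher together, mostly by less than 2-fold. Of 27 contractile genes counted, 24 lay above 0 (50.8% over all genes), 5 were past 2-fold higher, none was past 2-fold lower, and the median was 0.51. PDLIM7, a scaffold protein of actin filaments, was at 412 scaled counts in the acinar and 122 in the solid library, 3.37-fold higher (3.12 to 3.65), and TPM1, a tropomyosin gene, at 658 against 244 scaled counts, 2.69-fold higher (2.55 to 2.85). In the cultures PDLIM7 was at 29.3 and 50.5. MYL9, the myosin light chain of smooth muscle, and MYOCD, a co-activator of smooth muscle genes, also passed 2-fold but at low levels, with 2.79 against 0.420 scaled counts for MYL9 and 1.83 against 0.279 scaled counts for MYOCD. Among broadly expressed members, chosen after their values were seen, the filamin gene FLNA was at 1889 against 1084 scaled counts, the vinculin gene VCL at 333 against 173 scaled counts and the actin gene ACTB at 5791 against 3619 scaled counts. Against these, TPM2, another tropomyosin, had the lowest ratio at 73.0 against 133 scaled counts, and ACTA2, the smooth muscle actin used as a myofibroblast marker, was at 7.27 against 5.80 scaled counts. With a pseudocount of 5, 3 of the contractile genes stayed past 2-fold higher.

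IGFN1, encoding a muscle-associated protein, had the highest ratio of all genes that met the rule for naming (at 5 scaled counts or more in a tumor, above 0 in both, with whole fragments). It was at 45.7 scaled counts in the acinar and 3.78 in the solid library, 12.1-fold higher (8.16 to 18.7). The rest of the 15 highest were KRT6B, ADAM19, NES, IGFL2, TAGLN, IL11, CCL2, WNT11, SLC2A6, C5orf46, MMP2, BVES, IGFL1 and MYO1G. IGFL2 and IGFL1, small secreted proteins of the insulin growth factor-like family, were at 17.1 against 1.82 scaled counts and at 5.27 against 0.559 scaled counts, and both were below 1 scaled count in the cultures. SLC2A6, a sugar transporter gene, was at 36.6 against 7.69 scaled counts, 4.76-fold higher (3.53 to 6.502). BVES, an adhesion-associated membrane protein gene, was at 10.4 against 1.82 scaled counts, and MYO1G, a class I myosin gene, at 9.15 against 1.54 scaled counts. C5orf46 was at 8.68 against 1.26 scaled counts and was listed at 0 in both cultures.

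YAP-associated genes, another set that responds to the actin cytoskeleton, had 18 of 21 above 0 and a median of 0.26, but CTGF was the only member past 2-fold. ANKRD1, a commonly used target, was at 0.930 against 1.40 scaled counts, or 6 against 10 fragments.

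Several basement membrane genes were higher, collagen IV genes among them. Of 32 laminin, collagen IV and integrin genes, 6 were past 2-fold higher, 1 was lower, and the median was 0.32. COL4A1 and COL4A2, the neighbouring genes of the common collagen IV chains, were at 17.2 against 6.01 scaled counts and at 83.1 against 23.8 scaled counts, and NID2, a linker protein of the basement membrane, at 103 against 46.1 scaled counts. For COL4A1 and COL4A2 both tumors were below the cultures, which reached 157 and 189 for COL4A1. COL4A3, of another collagen IV trimer, had the lowest ratio of its group at 98.0 against 126 scaled counts. Integrins were mixed (15 counted, median 0.05): ITGAV and ITGB6 were higher, as given above, while ITGA10, a collagen-binding integrin chain, was at 2.33 against 7.83 scaled counts, 3.37-fold lower (1.88 to 6.41).

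Interstitial collagens showed 4 of 11 past 2-fold higher (1.98% over all genes), with a median of 0.78. Their crosslinking enzymes showed 0 of 13 and a median of -0.15. COL5A1, a minor fibrillar collagen, was at 94.7 scaled counts in the acinar and 24.5 in the solid library, 3.87-fold higher (3.27 to 4.61). COL16A1 and COL12A1, collagens that associate with fibrils, were at 26.5 against 6.71 scaled counts and at 19.2 against 5.45 scaled counts, and COL7A1, the anchoring fibril collagen, was at 461 against 219 scaled counts. The main fibril collagen COL1A1 had a ratio of -0.07, and COL27A1 the lowest of the group at 28.99 against 54.5 scaled counts. LOX, the lysyl oxidase gene, was at 7.13 against 11.05 scaled counts and P4HA1, a prolyl hydroxylase induced by low oxygen, at 76.7 against 132 scaled counts. No enzyme that modifies collagens passed 2-fold in either direction, which is close to the shares over all genes, 1.98% higher and 2.55% lower.

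Of 25 metalloproteases and inhibitors, 3 passed 2-fold higher (1.98% over all genes) and none lower (2.55% over all genes). Besides MMP2 and ADAM19 this was ADAMTS7, a secreted protease that cleaves cartilage matrix protein, at 13.95 against 4.89 scaled counts, 2.85-fold higher (1.91 to 4.34). MMP14, the membrane enzyme that activates MMP2, was at 2.95 against 6.57 scaled counts, in the other direction, and MMP1, the interstitial collagenase, at 1.24 against 1.96 scaled counts. TIMP2, an inhibitor that also takes part in MMP2 activation, was at 380.2 against 222 scaled counts and TIMP1 at 763 against 899.8 scaled counts. In the plasminogen system no member passed 2-fold higher: PLAU, the urokinase gene, was at 157 against 101 scaled counts. SERPINI1, neuroserpin, was past 2-fold lower at 0.310 against 2.52 scaled counts.

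Cadherins and other genes of the epithelial-mesenchymal transition did not move as a group. Of 23 counted, 4 passed 2-fold higher (2 with a pseudocount of 5) and 1 lower, and the median was -0.01. CDH2, N-cadherin, was at 86.5 scaled counts in the acinar and 23.5 in the solid library, 3.68-fold higher (3.09 to 4.40). CDH1, E-cadherin, was at 204 against 199 scaled counts, so the higher N-cadherin value came with an E-cadherin value that differed by less than its counting error. The transition's transcription factor genes had no member past 2-fold among 10 counted, close to the shares over all genes, 1.98% higher and 2.55% lower. SNAI1 was at 3.10 against 2.94 scaled counts. NES, an intermediate filament gene of progenitor cells, was at 21.4 against 2.24 scaled counts, 9.56-fold higher (5.68 to 17.2); TNC, the matrix protein tenascin C, also passed 2-fold higher. FAP, a serine protease of activated fibroblasts, was at 2.17 against 0.420 scaled counts, low in both. FN1, fibronectin, was lower at 102 against 292 scaled counts, 2.87-fold lower (2.63 to 3.14), and VIM, vimentin, was at 1943 against 2135 scaled counts. FN1 is also a TGF-β-induced gene in many cells, and its direction here was opposite to that of COL5A1, COL12A1 and COL16A1.

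Epithelial surface and junction genes stayed within 2-fold for all 44 counted, 34 of them above 0, with a median of 0.14. Past 2-fold over all genes were 1.98% higher and 2.55% lower, so a list of this size would hold few at those shares. The highest was CLDN4, a claudin of tight junctions, at 50.7 scaled counts in the acinar and 27.4 in the solid library, 1.85-fold higher (1.54 to 2.22), and the lowest CLDN7, another claudin, at 5.74 against 10.2 scaled counts, 1.78-fold lower (1.18 to 2.72). EPCAM, an epithelial adhesion protein gene, was at 28.1 against 20.3 scaled counts, 1.38-fold higher (1.11 to 1.73). The polarity genes, which set the apical side of a lumen, had 12 of 13 above 0 with small ratios, from -0.12 for INADL to 0.55 for EZR, the ezrin gene, at 1384 against 945 scaled counts. CRB3, an apical determinant, was at 32.4 against 22.1 scaled counts. Desmosomal genes ranged from -0.32 for PPL to 0.64 for DSC2, with DSP, desmoplakin, at 235 against 215 scaled counts.

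Outside those junctions, 5 of 23 gap junction, tetraspanin and adhesion genes passed 2-fold higher (1.98% over all genes) and none lower (2.55%). PVRL4, encoding nectin-4, was at 13.5 scaled counts in the acinar and 3.08 in the solid library, 4.38-fold higher (2.72 to 7.35). L1CAM, a neural adhesion molecule, was at 49.5 against 14.4 scaled counts, 3.43-fold higher (2.74 to 4.33). NRCAM, its relative, was at 47.1 against 17.2 scaled counts, and PCDH1, a protocadherin, at 84.5 against 33.3 scaled counts. TSPAN7 had the lowest ratio of the group at 10.2 against 20.1 scaled counts. The axon guidance and Eph list had 4 of 30 past 2-fold higher (2 with a pseudocount of 5), namely SEMA3F at 164 against 59.0 scaled counts, SEMA7A at 6.98 against 2.80 scaled counts, SLIT3 at 9.30 against 3.22 scaled counts and EPHA4 at 26.05 against 10.1 scaled counts. The secreted semaphorin SEMA3A was past 2-fold lower, at 3.57 against 10.1 scaled counts, so the semaphorins went both ways.

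Keratin genes were mostly higher. Of 18 counted, 6 were past 2-fold higher (1.98% over all genes) and 1 lower (2.55% over all genes), and the median was 0.63. None of the 5 keratins of simple epithelia passed 2-fold (median 0.15), which is close to those shares. Stratified keratins, which mark squamous and activated epithelium, had 4 of 9 past 2-fold higher and 1 lower, with 5 above and 4 below 0; whether they differ from the simple type was not tested. KRT17 was at 1771 scaled counts in the acinar and 729 in the solid library, 2.43-fold higher (2.35 to 2.51). KRT16 was at 116 against 48.9 scaled counts, 2.36-fold higher (2.08 to 2.69). KRT6B was at 24.8 against 2.24 scaled counts, 11.1-fold higher (6.62 to 19.9), although its near-identical relatives make the assignment of fragments between them uncertain. KRT14 was at 2.48 scaled counts in the acinar library and listed at 0 in the solid one. In the cultures these 4 genes were at 0.267 scaled counts or less, so for KRT17, KRT16 and KRT6B both tumors were above the cultures and the acinar tumor was the higher of them. KRT4, of non-keratinizing epithelium, was lower at 0.310 against 2.94 scaled counts. Of the hair-type keratins, KRT83 was at 2.79 against 0.559 scaled counts and KRT86 at 18.9 against 8.95 scaled counts, the latter at the 2-fold limit and under it when each library was scaled to the same total or the ratios were centred on their median. With a pseudocount of 5, 3 keratins stayed past 2-fold higher and 0 lower. KRT7 had the highest ratio of the simple type, 0.76, and KRT18 the lowest, -0.23.

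TP63, the transcription factor of basal and squamous epithelium, was at 38.3 scaled counts in the acinar and 12.2 in the solid library, 3.15-fold higher (2.46 to 4.07), and in the cultures at 2.31 and 1.69. SOX2, another squamous and progenitor factor, was at 2.79 against 0.699 scaled counts and was higher in both cultures, at 14.6 and 5.23. Other skin keratinocyte markers went different ways. KRT14 was past 2-fold higher, as given above, and KRT10 was at 87.1 against 110 scaled counts. KRT1, LOR and SBSN were listed at 0 in both tumors, and KRT5 was at 0.620 against 0.699 scaled counts. FLG, IVL and DSG1 were below 1 scaled count in both. The foregut and liver transcription factors had no member past 2-fold among 18, close to the shares over all genes, 1.98% higher and 2.55% lower. They ranged from GATA4 at 1.40 against 2.66 scaled counts to KLF4 at 276 against 173 scaled counts. FOXA1, a pioneer factor, was at 22.9 against 33.1 scaled counts.

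**Figure D3:**
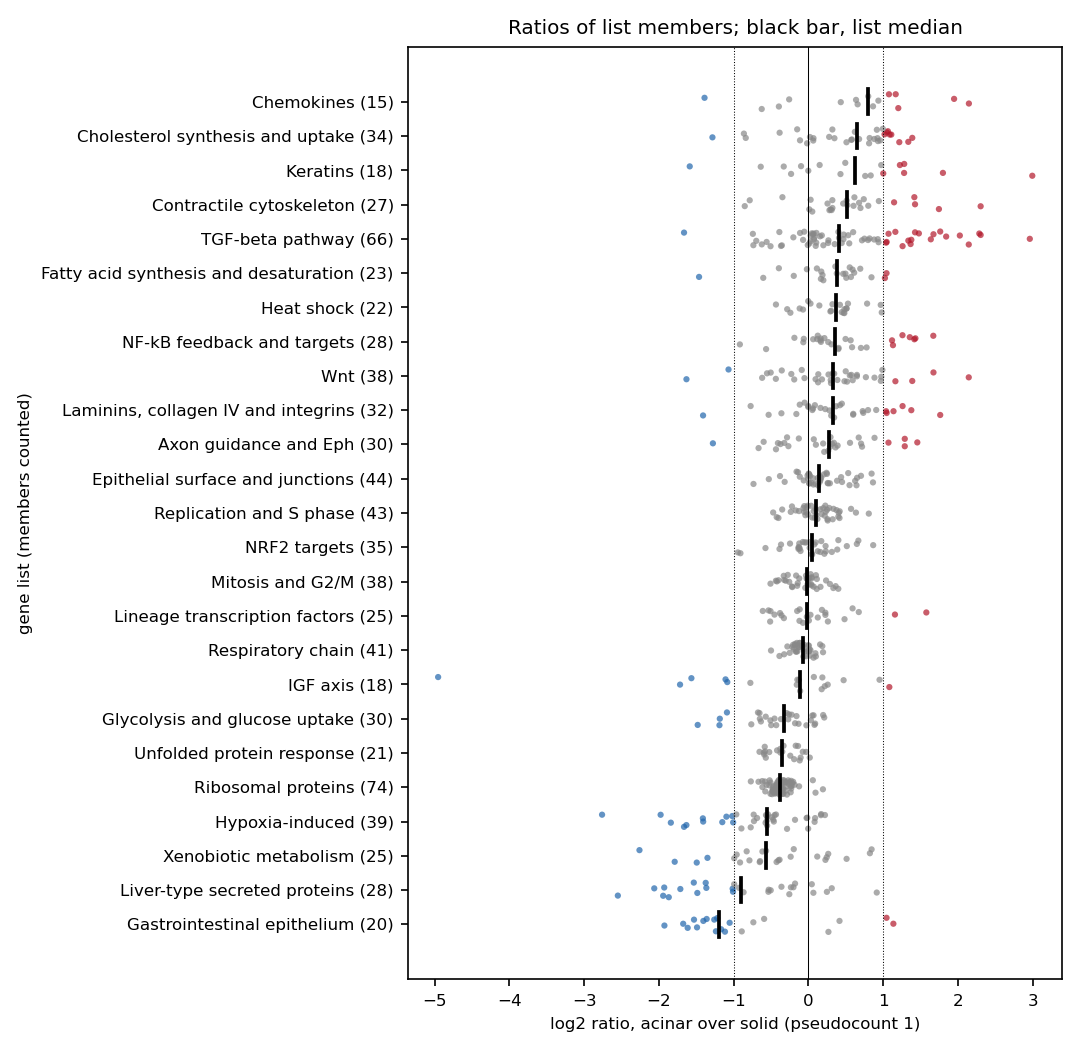
Log2 ratios of acinar over solid for the counted members of 25 of the gene lists, 1 point per gene, red at 2-fold or more higher, blue at 2-fold or more lower, with a black bar at each list median. Medians run from -1.19 for gastrointestinal epithelium to 0.80 for chemokines, and the ribosomal protein points lie almost all below 0.

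Genes for liver-type secreted proteins, which A549 cells are known to express in part, were lower in the acinar tumor. Of 28 counted, 12 were past 2-fold lower, none was higher, 23 lay below 0 (49.2% over all genes), and the median was -0.90; with a pseudocount of 5 it was -0.51. Coagulation genes led, with 7 of 12 past 2-fold lower and a median of -1.37. The fibrinogen chains FGA, FGB and FGG, neighbouring genes on chromosome 4, had nearly equal ratios. FGA was at 308 scaled counts in the acinar and 1128 in the solid library, 3.66-fold lower (3.48 to 3.84). FGB was at 157 against 605 scaled counts, 3.86-fold lower (3.61 to 4.14). FGG was at 188 against 718 scaled counts, 3.82-fold lower (3.59 to 4.07). All 3 were far above the cultures, where the highest value was 29.4 scaled counts for FGA in the single culture. Other clotting genes past 2-fold lower were F2, prothrombin, at 1.55 against 9.65 scaled counts, F5 at 30.1 against 88.9 scaled counts, F7 at 0.465 against 2.80 scaled counts and FGL1, a fibrinogen-like protein, at 66.0 against 172 scaled counts. F3, tissue factor, which starts clotting on cell surfaces and is not a liver product, was at 13.8 against 11.5 scaled counts.

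TF, the iron carrier transferrin, was at 2.64 scaled counts in the acinar and 20.3 in the solid library, 7.69-fold lower (4.64 to 13.6). APOH, a phospholipid-binding plasma protein, was at 13.5 against 39.6 scaled counts, 2.93-fold lower (2.30 to 3.78), and SERPINA1, the elastase inhibitor α1-antitrypsin, at 33.6 against 113 scaled counts, 3.35-fold lower (2.88 to 3.91). SERPINA4 and SERPINA6, of the same cluster family, were lower at 0.465 against 1.96 scaled counts and 1.86 against 4.75 scaled counts, whereas SERPINA5 had the highest ratio of the list, 0.91, at 5.89 against 2.66 scaled counts. RBP4, the retinol carrier, was at 19.2 against 18.6 scaled counts. ALB, albumin, was near the detection limit in both tumors, at 0.155 against 0.979 scaled counts. The lower values were therefore not common to every plasma protein gene these cells express. Complement genes were mostly within 2-fold, with 3 of 20 past it (1 with a pseudocount of 5), all lower; among these C5 was at 32.4 against 66.4 scaled counts and C4BPB at 0.775 against 2.66 scaled counts.

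Promoters of FGA and FGB are shown because their ratios were nearly the same and both windows hold a match to the same motif. The motif, known from liver promoters, is the letters GTTAAT, any 2 bases, TT. FGG, whose ratio was close to theirs, is not among the genes of the list with a match. Sequences here are the 250 bases before the RefSeq transcription start (GRCh38.p14), printed 5′ to 3′ on the strand of the gene with the match in capitals, which may be its reverse complement. FGB has 2 annotated windows, of which the one with the match is shown. The FGB window is at chr4:154562730-154562979 on the plus strand and the FGA window at chr4:154590743-154590992 on the minus strand.
FGB: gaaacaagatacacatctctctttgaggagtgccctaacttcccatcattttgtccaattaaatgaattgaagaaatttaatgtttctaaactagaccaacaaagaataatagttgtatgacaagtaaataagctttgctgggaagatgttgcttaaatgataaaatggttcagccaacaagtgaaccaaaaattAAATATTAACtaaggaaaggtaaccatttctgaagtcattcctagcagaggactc
FGA: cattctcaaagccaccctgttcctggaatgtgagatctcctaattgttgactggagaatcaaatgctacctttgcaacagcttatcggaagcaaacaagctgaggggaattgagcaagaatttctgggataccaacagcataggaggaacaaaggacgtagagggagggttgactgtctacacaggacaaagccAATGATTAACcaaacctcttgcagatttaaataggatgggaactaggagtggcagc
Over the list, 5 of 25 genes with a window (20%) held a match on either strand, against 1.03% of 27305 genes. The 5 with a match (FGA, FGB, APOH, SERPINA4 and SERPINA6) were all past 2-fold lower and had a median of -1.49. The 20 without it had a median of -0.52, with 6 past 2-fold lower. SERPINA4 and SERPINA6 were below 5 scaled counts in both tumors and only just past the limit. With a pseudocount of 5, 9 genes of the list stayed past 2-fold lower, against 12. A match describes the letters and not a binding site in use.

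Gastrointestinal epithelial genes had the lowest median of the lists, -1.19. Past 2-fold lower were 13 of 20 (2.55% over all genes), and 2 were higher (1.98%). TFF1, TFF2 and TFF3, the small trefoil peptides that gastric and intestinal mucous cells secrete and that are neighbours on chromosome 21, were all lower. TFF1 was at 35.4 scaled counts in the acinar and 110.3 in the solid library, 3.12-fold lower (2.69 to 3.63). TFF3 was at 31.0 against 68.4 scaled counts, 2.21-fold lower (1.87 to 2.61), and TFF2 at 1.09 against 3.92 scaled counts. MUC5AC, the gel-forming mucin of the stomach surface, was at 4487 against 10079 scaled counts, 2.25-fold lower (2.22 to 2.28). AGR2, a disulfide isomerase that mucin folding needs, was at 1324 against 2749 scaled counts, 2.08-fold lower (2.02 to 2.13), and its neighbour AGR3 at 4.34 against 13.1 scaled counts. Products of mucous cells were thus lower from trefoil peptides to mucins, by about the same fold for MUC5AC, AGR2 and TFF3. LGALS4, an intestinal galectin, was at 21.9 against 65.0 scaled counts, TM4SF4 at 46.5 against 132 scaled counts, TM4SF5 at 2.17 against 11.05 scaled counts and ANXA13, an intestinal annexin, at 39.4 against 95.7 scaled counts. ALPI, intestinal alkaline phosphatase, GPA33, an intestinal surface antigen, and REG4, a secreted lectin, were lower at 1.24 or less against 3.496 scaled counts or more. In the other direction SPINK1, a trypsin inhibitor, was at 50.7 against 22.5 scaled counts, 2.25-fold higher (1.86 to 2.74), and ANXA10, a gastric annexin, at 11.2 against 4.89 scaled counts, 2.28-fold higher (1.503 to 3.52). With a pseudocount of 5, 8 members stayed past 2-fold lower and 1 higher.

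Among 28 mucin, S100 and CEACAM genes none passed 2-fold higher and 3 passed 2-fold lower, all mucins: MUC5AC, MUC5B and MUC4. MUC5B, the neighbour of MUC5AC, was at 2993 scaled counts in the acinar and 6966 in the solid library, 2.33-fold lower (2.29 to 2.37); its cultures were at 8878 and 4415. MUC4, a membrane mucin, was at 0 against 1.26 scaled counts. The membrane mucin MUC1 was at 472 against 465 scaled counts, and MUC12 had the highest ratio at 427 against 259.7 scaled counts. Close to the shares over all genes, 1.98% higher and 2.55% lower, no S100 gene (12 counted) and no CEACAM gene (5 counted) passed 2-fold. Among those, S100P, a calcium-binding protein of gastric and pancreatic tumors, was at 279 against 541 scaled counts, S100A3 at 59.6 against 30.9 scaled counts and the adhesion antigen CEACAM6 at 11712 against 8586 scaled counts.

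Most of the 26 alveolar and airway markers were too low to count. Of the 11 counted, 4 were past 2-fold lower and none higher. That count was 1 with a pseudocount of 5 and 2 with a filter of 5 scaled counts, and the median moved from -0.64 to -0.29 and -0.13. BPIFB1, a secreted protein of airway goblet cells, was at 0.155 scaled counts in the acinar and 6.29 in the solid library, which is 1 fragment in the acinar library, and its ratio carries an interval from 6.92 to 1638. PIGR, the receptor that carries immunoglobulins across epithelium, was at 0.775 against 2.94 scaled counts, LYZ, lysozyme, at 23.9 against 49.4 scaled counts, and SFTPB, a surfactant protein, at 0 against 1.12. LCN2, an iron-binding defence protein, was at 485 against 447 scaled counts.

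Hypoxia-induced genes outside glycolysis were lower in the acinar tumor. Of 39 counted, 34 lay below 0 (49.2% over all genes), and the median was -0.56. Past 2-fold lower were 11 (2.55% over all genes), and none was higher (1.98%). CA9, which exports acid from hypoxic cells, was 7.10-fold lower (5.84 to 8.69) at the values given above, and both cultures were above both tumors, at 295 and 215. ADM, adrenomedullin, a vasodilator peptide, was at 27.6 against 101 scaled counts, 3.67-fold lower (3.11 to 4.35). EGLN3, an oxygen-sensing hydroxylase, was at 78.1 against 209 scaled counts, 2.67-fold lower (2.42 to 2.96). NDRG1, a stress-induced growth regulator, was at 258 against 574 scaled counts, HILPDA, a lipid droplet protein, at 17.1 against 55.0 scaled counts, and DDIT4, an inhibitor of mTOR signaling, at 349 against 708 scaled counts. STC2, the hormone stanniocalcin 2, was at 1.71 against 9.65 scaled counts, far below both cultures at 108 and 97.2. The other members past 2-fold lower were PPFIA4, ANGPTL4, NDUFA4L2 and TMEM45A. The highest ratio of the list was that of VLDLR, a lipoprotein receptor, at 60.0 against 51.3 scaled counts, so the members ran from about 7-fold lower to 1.17-fold higher.

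Glycolysis genes lay below 0 for 23 of 30 (49.2% over all genes), with a median of -0.33. Past 2-fold lower were 4 (2.55% over all genes), and none was higher (1.98%). HK2, an inducible hexokinase, was at 8.53 scaled counts in the acinar and 25.6 in the solid library, 3.001-fold lower (2.21 to 4.13), while HK1, the constitutive form, was at 68.8 against 65.6 scaled counts. PFKFB3, which makes the activator of phosphofructokinase, was at 61.2 against 131 scaled counts, 2.15-fold lower (1.91 to 2.42). ALDOC, an aldolase, was at 15.2 against 35.9 scaled counts, 2.37-fold lower (1.87 to 3.02). Of the glucose transporters, SLC2A3 was at 36.3 against 83.8 scaled counts, 2.31-fold lower (1.98 to 2.70), and SLC2A1 at 392 against 528 scaled counts. HK2, PFKFB3, ALDOC and SLC2A3 were the 4 past 2-fold lower, and PYGL, glycogen phosphorylase, had the highest ratio, 0.21.

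The CA9 promoter is shown because CA9 had the lowest ratio of the hypoxia list and its window, at chr9:35673678-35673927 on the plus strand, holds the HIF core ACGTG, here as its reverse complement, 18 bases before the start.
CA9: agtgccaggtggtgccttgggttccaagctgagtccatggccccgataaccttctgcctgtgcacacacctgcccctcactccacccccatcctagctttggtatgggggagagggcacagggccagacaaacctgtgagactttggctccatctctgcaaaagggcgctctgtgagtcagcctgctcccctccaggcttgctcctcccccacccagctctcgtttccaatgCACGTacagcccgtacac
In the hypoxia list 18 of 33 genes with a window (54.5%) held the core on either strand, against 21.7% of 27305 genes; their median was -0.63, with 4 past 2-fold lower, against -0.46 and 5 for the 15 without it. In the glycolysis list 15 of 28 (53.6%) held it, with a median of -0.57 and 3 past 2-fold lower, against -0.13 and 0 for the 13 without it.

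Chemokine genes were higher. Of 15 ligands and receptors counted, 5 were past 2-fold higher (1.98% over all genes) and 1 lower (2.55%). Above 0 lay 11 (50.8% over all genes), and the median was 0.80. CXCL8, which attracts neutrophils, was at 195 scaled counts in the acinar and 49.8 in the solid library, 3.92-fold higher (3.48 to 4.42). CXCL1, of the same cluster and function, was at 156 against 68.7 scaled counts, 2.26-fold higher (2.03 to 2.53). CCL2, which attracts monocytes, was at 15.2 against 2.66 scaled counts, 5.72-fold higher (3.47 to 9.90). For CXCL8 the acinar value was above both cultures, at 67.0 and 84.8, and for CCL2 it was within their range of 12.2 to 18.0. CX3CL1, a membrane-bound chemokine, was at 3.88 against 1.12 scaled counts, and ACKR3, a scavenging receptor, at 4.65 against 1.68 scaled counts. CXCL16, the other membrane-bound chemokine, was lower at 7.44 against 21.1 scaled counts, 2.84-fold lower (2.04 to 4.01). With a pseudocount of 5, 3 stayed past 2-fold higher.

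NF-κB target and feedback genes had 7 of 28 past 2-fold higher (1.98% over all genes) and none lower (2.55%). Above 0 lay 23 (50.8% over all genes), with a median of 0.35. IL32, a cytokine, was at 113 scaled counts in the acinar and 35.0 in the solid library, 3.25-fold higher (2.81 to 3.76); in the cultures it was below 1 scaled count. TNFAIP3, the feedback inhibitor A20, was at 80.0 against 32.9 scaled counts, 2.43-fold higher (2.08 to 2.85), and NFKBIA, the inhibitor that holds NF-κB in the cytosol, at 178 against 120.0 scaled counts, 1.48-fold higher (1.36 to 1.62). RELB, a subunit that is itself induced, was at 52.4 against 19.9 scaled counts, 2.64-fold higher (2.16 to 3.23), whereas NFKB1 was at 31.5 against 30.1 scaled counts. The apoptosis inhibitor BIRC3 was at 97.7 against 44.1 scaled counts, the prostaglandin synthase PTGS2 at 78.3 against 35.5 scaled counts, the leukocyte adhesion molecule ICAM1 at 6.98 against 1.96 scaled counts and lymphotoxin β (LTB) at 2.79 against 0.420 scaled counts. The upstream cytokine genes were scarcely detected: TNF was at 0.155 scaled counts in the acinar library and 0 in the solid one, and IL1B was at 1.09 against 2.94 scaled counts. Interferon-stimulated genes, another inflammatory group, had no member past 2-fold higher among 32 and a median of -0.06; IFIT1 and UBE2L6 were past 2-fold lower, though not with a pseudocount of 5, at 4.96 against 11.6 scaled counts and 5.43 against 13.01 scaled counts.

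Promoters of CXCL8 and IL32 are shown because they were the most different members of their lists with a κB match in the window, here as GGANTTTCC for CXCL8, at chr4:73740319-73740568 on the plus strand, and as GGG, any 2 bases, TTTCC for IL32, at chr16:3065153-3065402 on the plus strand. IL32 has 2 annotated windows, of which the one with the match is shown. The 2 motifs overlap in the sequences they can match.
CXCL8: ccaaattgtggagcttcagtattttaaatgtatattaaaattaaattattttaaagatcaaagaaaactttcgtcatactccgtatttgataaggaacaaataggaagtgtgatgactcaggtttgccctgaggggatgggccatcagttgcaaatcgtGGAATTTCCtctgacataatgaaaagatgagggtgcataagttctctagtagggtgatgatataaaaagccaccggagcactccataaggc
IL32: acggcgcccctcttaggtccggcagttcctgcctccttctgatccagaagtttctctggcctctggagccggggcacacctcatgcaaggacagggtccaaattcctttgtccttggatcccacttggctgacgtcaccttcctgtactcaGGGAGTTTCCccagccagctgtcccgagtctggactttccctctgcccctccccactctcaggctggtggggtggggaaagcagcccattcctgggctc
In the NF-κB list 12 of 23 genes with a window (52.2%) held the GGG form on either strand, against 2.12% of 27305 genes. Their median was 0.48, with 4 past 2-fold higher, against 0.17 and 2 for the 11 without it. In the chemokine list 5 of 9 (55.6%) held GGANTTTCC, against 1.79% of all genes. Their median was 0.86, against 0.09 for the 4 without it. The 5 were CXCL1, CXCL2, CXCL3, CXCL5 and CXCL8, related CXC genes that are not separate cases. GGANTTTCC is the form of the κB motif in CXCL8, itself a member, and was not the form used for the NF-κB list.

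Cholesterol synthesis was the metabolic pathway with the most genes past 2-fold higher. Of 34 synthesis and uptake genes, 8 were past 2-fold higher (1.98% over all genes) and 1 lower (2.55%). Above 0 lay 27 (50.8% over all genes), and the median was 0.65. Among the 20 enzymes 19 lay above 0 and the median was 0.92, with 7 past 2-fold higher, and ratios ran from -0.02 for TM7SF2 to 1.34 for MSMO1. Those 7 are given in pathway order. At the start, ACAT2 was at 60.2 scaled counts in the acinar and 28.3 in the solid library and HMGCS1, which makes HMG-CoA, at 181 against 77.2 scaled counts, 2.34-fold higher (2.11 to 2.59). In the middle, IDI1 was at 126 against 58.9 scaled counts and FDFT1, squalene synthase, at 267 against 129 scaled counts, 2.08-fold higher (1.92 to 2.25). Toward the sterols, SQLE, squalene epoxidase, was at 152 against 70.1 scaled counts, CYP51A1, lanosterol demethylase, at 129.9 against 63.6 scaled counts and MSMO1, the next demethylase, at 167 against 65.6 scaled counts, 2.55-fold higher (2.28 to 2.85). TM7SF2, a sterol reductase, was the enzyme with the lowest ratio, at 17.7 against 17.9 scaled counts. INSIG1, the sensor that retains SREBP when sterols are plentiful, was at 95.04 against 35.7 scaled counts, 2.67-fold higher (2.30 to 3.10). NR1H3, the receptor LXRα that responds to oxidized sterols, was lower at 9.92 against 25.6 scaled counts, 2.58-fold lower (1.93 to 3.48). For HMGCS1 and INSIG1 both cultures were above the acinar tumor, at 280.4 and 212 for HMGCS1 and at 204 and 138 for INSIG1.

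The INSIG1 promoter is shown as the member with the highest ratio of the list; its window, at chr7:155297628-155297877 on the plus strand, holds the sterol element letters CACNCCAC as the reverse complement, 208 bases before the start.
INSIG1: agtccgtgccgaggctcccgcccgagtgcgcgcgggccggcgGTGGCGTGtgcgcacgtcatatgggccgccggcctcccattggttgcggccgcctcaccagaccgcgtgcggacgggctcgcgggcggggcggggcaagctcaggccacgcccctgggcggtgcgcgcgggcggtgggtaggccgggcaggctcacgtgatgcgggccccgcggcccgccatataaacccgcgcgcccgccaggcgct
In the list 5 of 26 genes with a window (19.2%) held these letters on either strand, against 5.89% of 27305 genes. Their median of 0.35 was below that of the 21 without them, 0.57.

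Fatty acid synthesis and desaturation genes had 18 of 23 above 0 and a median of 0.38, with 2 past 2-fold higher and 1 lower, none of which stayed so with a pseudocount of 5. ACSL5, which activates fatty acids, was at 92.3 against 44.2 scaled counts, 2.09-fold higher (1.82 to 2.40), and PNPLA3, a lipase, was at 2.17 against 0.559 scaled counts. ELOVL2, an elongase of polyunsaturated fatty acids, was lower at 1.24 against 5.17 scaled counts, and ACLY, which supplies the building block, was at 466 against 363 scaled counts. Fatty acid oxidation genes had no member past 2-fold higher among 19 and a median of -0.09. The 2 past 2-fold lower were ANGPTL4 and CIDEC, a lipid droplet protein at 2.95 against 8.81 scaled counts.

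Ribosomal protein genes were lower by a small amount, nearly all in the same direction. Of 74 counted, 71 lay below 0 (49.2% over all genes), and the median was -0.38, with ratios from -0.77 for RPL12 to 0.19 for RPL36A. None passed 2-fold (1.98% higher and 2.55% lower over all genes). RPLP0 was at 894 scaled counts in the acinar and 1151 in the solid library, 1.29-fold lower (1.24 to 1.33), and RPSA at 196 against 251 scaled counts, 1.28-fold lower (1.19 to 1.38). Both subunits had nearly the same median, -0.39 for the large and -0.38 for the small one. Translation factors had 18 of 24 below 0 and a median of -0.21; EEF2, an elongation factor, was at 1529 against 2182.1 scaled counts and EEF1A1 at 782 against 1010.1 scaled counts. Mitochondrial ribosomal proteins did not share this, with a median of 0.05 over 34 genes and a range from -0.30 to 0.35. Respiratory chain genes had a median of -0.08 over 41, with ATP5B lowest at 533 against 754 scaled counts.

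Ratios were also described by transcript length, since ribosomal protein genes have short transcripts. Protein-coding genes at 5 scaled counts or more were put in 5 bins of equal gene number by the length of the longest annotated transcript. The median ratio was 0.01 in the bin of shortest and 0.02 in that of longest transcripts, and 0.02 in the former without ribosomal proteins. The bin of shortest transcripts ran from 381 to 2014 bases. Differences by length within it were not tested, so the bins do not decide whether length has a part. Long noncoding RNA genes, 657 counted, had a median of -0.11, with 3.20% past 2-fold higher and 5.48% past 2-fold lower, against 1.90% and 2.41% of 12765 protein-coding genes.

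Endoplasmic reticulum chaperones and heat shock genes went opposite ways. Of 21 unfolded protein response genes 20 lay below 0, none passed 2-fold, and the median was -0.35; HSPA5, the chaperone BiP, was at 452 scaled counts in the acinar and 682 in the solid library, 1.51-fold lower (1.44 to 1.58), and ERN1, the stress sensor IRE1, at 3.10 against 5.45 scaled counts. Of 22 heat shock genes 16 lay above 0, none passed 2-fold, and the median was 0.37; HSPA1A was at 76.7 against 56.1 scaled counts, 1.37-fold higher (1.197 to 1.57), and CRYAB, a small heat shock protein, highest at 18.9 against 9.09 scaled counts. The integrated stress response list had 4 of 38 past 2-fold lower (2 with a pseudocount of 5), STC2, DDIT4, NUPR1 at 0.775 against 3.36 scaled counts and PHGDH at 0.775 against 2.66 scaled counts, while its central factor ATF4 was at 496 against 489 scaled counts. For PHGDH, the first enzyme of serine synthesis, both tumors were far below the cultures, at 21.6 and 37.0.

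Proliferation genes showed small ratios. None of 43 replication and S phase genes and none of 38 mitosis genes passed 2-fold, with medians of 0.10 and -0.01. These counts lie close to the shares over all genes, 1.98% higher and 2.55% lower. MCM2, of the replicative helicase, was at 27.6 against 23.9 scaled counts, 1.15-fold higher (0.930 to 1.43), and CCNA2, cyclin A2, at 9.28 against 11.3 scaled counts. Both were lower than in the cultures, at 70.6 and 109 for MCM2. Among G1 genes CDKN1C, the inhibitor p57, was past 2-fold higher at 58.3 against 27.5 scaled counts, 2.12-fold higher (1.78 to 2.53), and CCND1, cyclin D1, was at 416 against 325 scaled counts. Of 26 p53 targets, SFN, the checkpoint protein 14-3-3σ that stratified epithelium also expresses, was the 1 past 2-fold, at 978 against 483 scaled counts, 2.03-fold higher (1.94 to 2.11), though under it when each library was scaled to the same total, and CDKN1A, the inhibitor p21, was at 223 against 143 scaled counts, 1.56-fold higher (1.44 to 1.69).

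NRF2 targets, known to be high in A549 cells, had no member past 2-fold among 35 and a median of 0.04. That count is close to the shares over all genes, 1.98% higher and 2.55% lower. NQO1, a quinone reductase, was at 1303 against 1195 scaled counts. Xenobiotic metabolism genes had 4 of 25 past 2-fold lower (2 with a pseudocount of 5), none higher, and a median of -0.57. CYP4F11, a fatty acid hydroxylase, was at 4.96 scaled counts in the acinar and 27.5 in the solid library, 5.55-fold lower (3.81 to 8.34). The sulfotransferases SULT1A1 and SULT2B1 were at 5.43 against 15.4 scaled counts and at 2.33 against 10.5 scaled counts, and UGT1A1, a glucuronosyltransferase, at 0 against 1.82. In the retinoid list DHRS9, a retinol dehydrogenase, was lower at 3.41 against 13.98 scaled counts, 4.10-fold lower (2.56 to 6.83).

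Immediate early genes mostly lay above 0, 17 of 23, yet the 2 past 2-fold were lower. FOS, of the AP-1 factor, was at 28.99 scaled counts in the acinar and 108 in the solid library, 3.74-fold lower (3.18 to 4.41), and EGR1 at 7.29 against 20.6 scaled counts, 2.82-fold lower (2.02 to 4.01); both were higher in the cultures, at 334 and 670.3 for FOS and at 101 and 313 for EGR1. JUNB, a partner of FOS, was at 229 against 172 scaled counts and NR4A1, a nuclear receptor, highest at 233 against 118 scaled counts. The ERK feedback genes, 16 counted, had no member past 2-fold, close to the shares over all genes, 1.98% higher and 2.55% lower.

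Growth factor genes went both ways. Among receptor tyrosine kinases and ligands (27 counted, median -0.05), 1 was past 2-fold higher and 3 were lower (1 with a pseudocount of 5). PDGFB was higher, as given above, and FGFR3 was lower at 2.79 against 10.8 scaled counts, 3.86-fold lower (2.29 to 6.85). HGF, the ligand of MET, was at 0.155 against 2.66 scaled counts and EGF at 0.310 against 1.96 scaled counts, both low. EGFR was at 15.3 against 20.3 scaled counts, against 134 and 151 in the cultures. In the IGF axis 5 of 18 were past 2-fold lower and 1 higher; with a pseudocount of 5, 2 were lower, and with whole fragments only 4 were lower and 0 higher. IGFBP3, which binds IGF in the circulation and tissue, was at 907 scaled counts in the acinar and 2686 in the solid library, 2.96-fold lower (2.88 to 3.05). IGFBP2 and IGFBP5, neighbours on chromosome 2, were at 11.01 against 24.5 scaled counts and at 7.44 against 17.2 scaled counts, while IGFBP7, a low-affinity relative, was higher at 96.2 against 44.9 scaled counts. IGF2, a fetal growth factor, was at 0.155 against 2.80 scaled counts. H19, the imprinted RNA next to IGF2, was listed at 1.55 scaled counts in the acinar and 78.0 in the solid library; its fragments were not whole, so the size of this difference is uncertain.

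The Wnt list had 4 of 38 past 2-fold higher and 2 lower (2 and 1 with a pseudocount of 5), with a median of 0.33. WNT11 was at 7.75 against 0.979 scaled counts, 7.92-fold higher (3.57 to 20.7), WNT7A at 6.202 against 1.26 scaled counts, 4.93-fold higher (2.35 to 11.5), and WNT5B at 1.24 against 0. WNT6 was lower, at 0 against 2.10. TCF7, a transcription factor of the pathway, was at 29.5 against 10.6 scaled counts, 2.77-fold higher (2.11 to 3.67), and DKK1, a secreted inhibitor, was lower at 140.3 against 295 scaled counts, 2.10-fold lower (1.95 to 2.28). CTNNB1, β-catenin, was at 247 against 176 scaled counts. The Wnt ligands past 2-fold were therefore all below 8 scaled counts, while TCF7 and DKK1 rested on more fragments. In the Notch pathway the receptor NOTCH3 was at 4.19 scaled counts in the acinar and 29.4 in the solid library, 7.02-fold lower (4.69 to 10.9), whereas NOTCH1 was at 25.9 against 18.6 scaled counts. Of the targets, HEY1 was lower at 0.930 against 3.50 scaled counts, HES6 higher at 32.1 against 13.01 scaled counts, and HES1 at 6.202 against 5.59 scaled counts.

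Over all genes 1.98% were past 2-fold higher and 2.55% lower. Genes past 2-fold in smaller groups are named next, and most of them were under it with a pseudocount of 5. In the sphingosine 1-phosphate list (13 counted) these were SPHK1 and the receptor S1PR1, at 2.95 against 0.839 scaled counts, both higher; the degrading lyase SGPL1 came next, at 164 against 99.1 scaled counts. Prostanoid genes (12 counted) had PTGS2 higher and the receptor PTGER2 lower, at 0.310 against 2.10 scaled counts. In the HLA and antigen presentation list (18 counted), CD74, the class II chaperone, was past 2-fold lower at 0.620 against 3.50 scaled counts. Of 11 metallothionein and metal transport genes, MT1X was past 2-fold lower at 15.8 against 34.8 scaled counts, 2.202-fold lower (1.74 to 2.80). Of 17 circadian clock genes none passed 2-fold, with ARNTL, which encodes BMAL1, highest at 22.8 against 11.7 scaled counts. Of 6 histone genes none passed 2-fold, and all lay below 0. Among 19 serine, one-carbon and polyamine genes none passed 2-fold higher and PHGDH alone passed 2-fold lower.

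Genes of secretory granules and neurons included the 2 lowest ratios among genes that met the rule for the lowest genes (5 scaled counts or more in a tumor, above 0 in both, whole fragments). CHGB, chromogranin B, was at 13.3 scaled counts in the acinar and 179 in the solid library, 13.4-fold lower (10.8 to 16.9), and SNCG, γ-synuclein, at 4.65 against 44.3 scaled counts, 9.53-fold lower (6.54 to 14.4). For both genes the cultures lay between the tumors, at 41.1 and 20.9 for CHGB and at 11.3 and 8.13 for SNCG. CHGA, chromogranin A, was nearly absent, at 0 against 0.699, and NTS, neurotensin, was lower at 21.6 against 59.3 scaled counts, 2.75-fold lower (2.27 to 3.36). SCG5 and SYT1, of the granule and synaptic vesicle, were higher at 3.41 against 0.699 scaled counts and at 5.12 against 1.96 scaled counts. The 23 genes counted split into 5 past 2-fold higher (2 with a pseudocount of 5) and 3 lower.

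The rest of the 15 lowest, besides CHGB, SNCG, CA9, BPIFB1, NOTCH3, TF, CYP4F11, F2, STC2 and FGB, were SVEP1, CACNA1B, SLCO2B1, AGTR1 and TTLL6. SVEP1, a large adhesion protein of the matrix, was at 1.55 scaled counts in the acinar and 14.96 in the solid library, 9.65-fold lower (5.05 to 20.7), and AGTR1, the angiotensin II receptor, at 3.72 against 20.7 scaled counts, 5.56-fold lower (3.60 to 8.96). SLCO2B1, an organic anion transporter, was at 0.930 against 9.93 scaled counts, CACNA1B, a calcium channel chain, at 0.310 against 6.57 scaled counts and TTLL6, a tubulin-modifying enzyme, at 0.620 against 5.17 scaled counts. SVEP1 was near 79.6 scaled counts in both cultures, above either tumor.

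PLVAP, which encodes a diaphragm protein of fenestrated endothelium, was at 13.02 scaled counts in the acinar library, or 84 fragments, and was listed at 0 in the solid one and in both cultures. Against the limit of 3 fragments in the solid library it was at least 31.0-fold higher. Of 14 endothelial markers 3 were counted, PLVAP among them. SOX17, also an endodermal factor, was higher at 27.8 against 13.7 scaled counts. EGFL7, which A549 cultures express as well, was lower at 32.7 against 55.7 scaled counts. PECAM1 was at 0.465 against 0.979 scaled counts, CDH5 at 0.465 against 0.420 scaled counts and VWF at 0.155 against 0. These last genes had too few fragments to show a difference or its absence. The remaining genes at 5 scaled counts or more in 1 tumor and at 0 in the other were read-through transcripts whose fragments were not whole, 2 of them at 0 in the solid and 3 at 0 in the acinar library.

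Position along the chromosomes was examined because the tumors could differ by region. Chromosome medians ran from -0.06 for chromosome 2 to 0.06 for chromosome 18. Over runs of 41 neighbouring genes at 5 scaled counts or more, the lowest median was -0.29, around LANCL1 on chromosome 2, from ABI2 to VIL1. In that run 31 of 41 genes lay below 0 and 3 were past 2-fold lower, so the shift was shared by many genes of small ratio; between the cultures the median of the run was 0.10. The lowest run on any other chromosome had a median of -0.21, on chromosome 12, and the highest of all 0.25, around TARID on chromosome 6. IGFBP2 and IGFBP5, described above, and VIL1, an intestinal actin-bundling gene at 13.95 against 23.9 scaled counts, lie in that run. DNA copy number was not measured, and its part in this run was not tested.

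**Figure D4:**
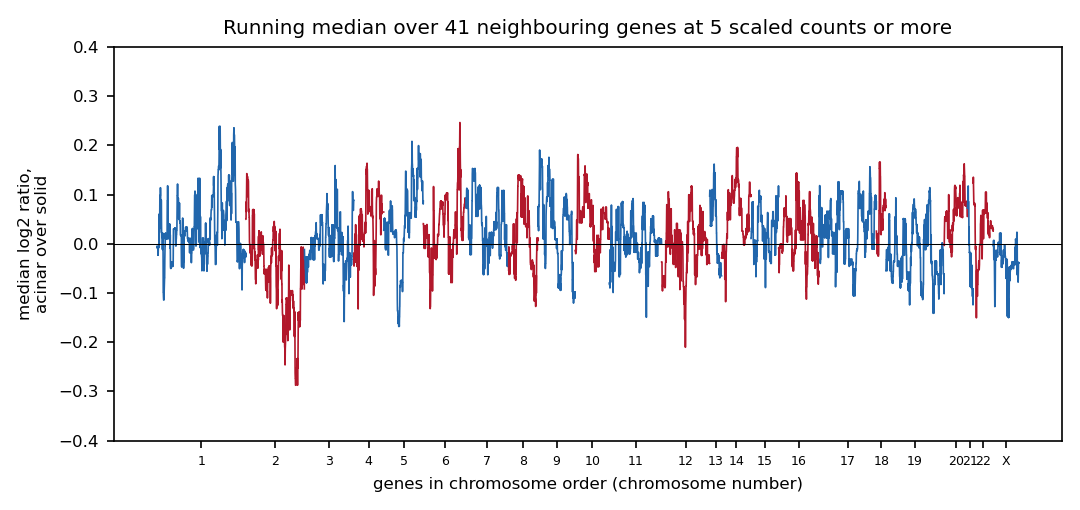
Running median of the log2 ratio of acinar over solid over 41 neighbouring genes, with genes in chromosome order along the horizontal axis and colour changing by chromosome. The line stays within 0.25 of 0 except in the later part of chromosome 2, where it reaches -0.29.

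Finally, the tumor ratios were set beside those of the cultures, mix over single, which share no library with the tumors. Of 12898 genes counted in both pairs, 177 were past 2-fold higher and 242 past 2-fold lower in the acinar tumor, and 74 and 195 in the mix culture. Over all 13485 genes counted in the cultures, 0.682% were past 2-fold higher and 1.74% lower; over the genes counted in both pairs the shares were 0.574% and 1.51%. Higher in both were 7 genes, 3.95% of the 177 and 9.46% of the 74. Lower in both were 38 genes, 15.7% of the 242 and 19.5% of the 195. Genes higher in the acinar tumor and lower in the mix culture numbered 7, 3.95% of the 177 and 3.59% of the 195. Genes lower in the acinar tumor and higher in the mix culture also numbered 7, 2.89% of the 242 and 9.46% of the 74. A comparison of this kind rests on 1 library per group in each pair.

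The 7 genes higher in both were IL11, SPHK1, CTGF, ANXA8, ANXA8L1, IGFBP7 and PLSCR3. SPHK1 had 2.04 scaled counts in single culture and 6.28 in mix culture, and CTGF had 12.2 and 26.5. ANXA8 and ANXA8L1, near-identical annexin genes whose fragments cannot be assigned with certainty, were at 18.1 against 7.83 scaled counts and at 36.1 against 17.3 scaled counts in the tumors. IL11, SPHK1 and CTGF are TGF-β-induced genes of the list above, so 3 of its 14 induced members past 2-fold higher in the acinar tumor were also past 2-fold higher in the mix culture. TAGLN, ADAM19 and MMP2 were not, with culture ratios of -0.49, 0.42 and -0.14.

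The 10 lowest of the genes lower in both, by the combined ratios, were QPRT, TF, FGB, AGTR1, CREB3L1, FGG, NTNG2, ADCY5, FN1 and HK2. FGB had 14.3 scaled counts in single culture and 1.85 in mix culture, and AGTR1 had 54.9 and 13.9. FN1 was at 3394 and 1136, more than in either tumor. CREB3L1, a membrane-bound transcription factor of secretory cells, was at 19.7 against 66.7 scaled counts in the tumors and at 8.44 and 1.05 in the cultures. QPRT, an enzyme of NAD synthesis, was at 0.155, 1 fragment, against 4.34 in the tumors and at 31.5 and 5.47 in the cultures, and ADCY5, an adenylate cyclase, was at 1.86 against 7.69 scaled counts and at 54.7 and 12.4. Several liver-type genes and fibronectin thus differed in the same direction in both pairs, while FOS and EGR1, lower in the acinar tumor, were higher in the mix culture.

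**Figure D5:**
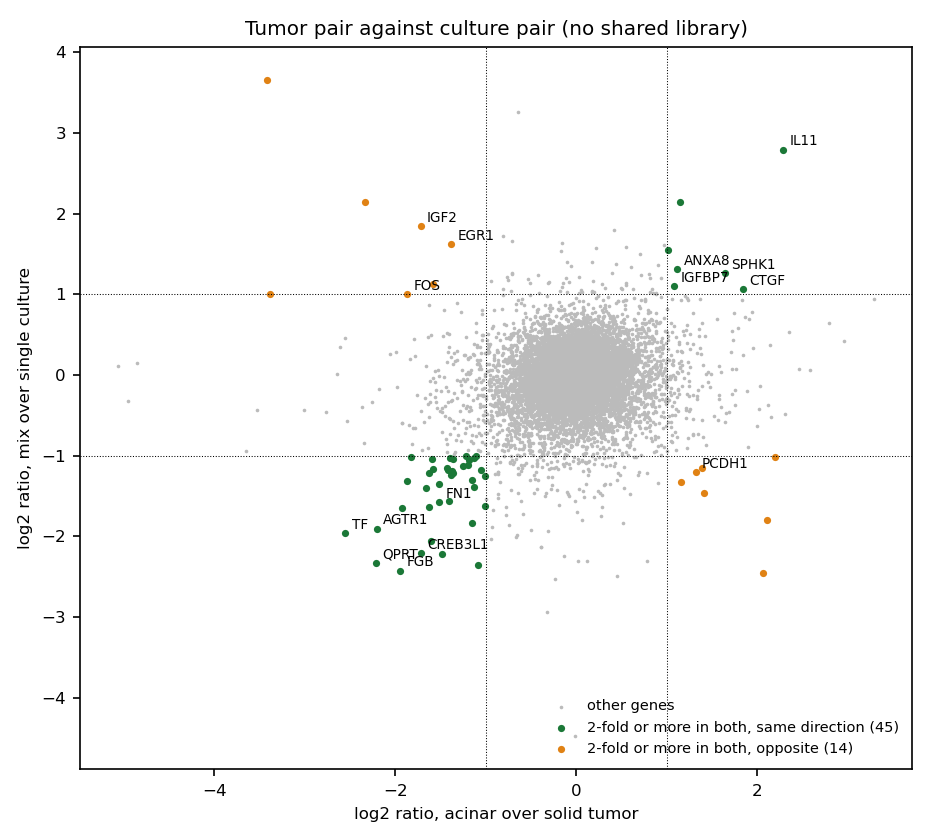
Log2 ratio of acinar over solid tumor (horizontal) against mix over single culture (vertical) for genes counted in both pairs, genes of the Y chromosome not drawn; dotted lines mark 2-fold. Green points are the 45 genes past 2-fold in the same direction in both pairs, most of them in the lower left, and orange points the 14 in opposite directions.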

How the data were processed

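RNA was measured by sequencing of 4 libraries, 1 per group, made from poly-A RNA with a TruSeq kit, per the labels' protocols. Genome build hg19 and the tools Cuffdiff 2.2.1, SAMtools 1.0, TopHat2 2.0.13 and Bowtie2 2.2.3 are named by the submitters' processing notes. The role of each tool, the annotation and the strand setting are unstated (not given in the sources used here). Without a stated strand, overlapping and antisense genes cannot be told apart, and near-identical paralogs are uncertain.

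The values the authors deposited are called raw signal in the file header. They are whole fragments times a factor that differs per library: dividing by 1 library's factor gave whole numbers, within 0.05, for 90.0% to 91.2% of genes. Each signal value was divided by 8.94, the same constant for all libraries, to give scaled counts, so the normalization between libraries is the authors'. The estimated depth was 6630000 (acinar) to 12180000 (mix culture) fragments. Fragments carry no molecular identifiers and are not independent molecules.

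Ratios are log2((acinar + 1)/(solid + 1)) for genes at 1 scaled count or more in at least 1 tumor library, and 2-fold is a limit on that scale, not a test. Printed folds are plain ratios, with exact conditional binomial 95% intervals where fragments were whole. Calculations used Python 3.11.15 with numpy 2.4.6, pandas 2.3.3 and scipy 1.17.1, and were tested on simulated data.

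The gene lists, the comparison and the limits were chosen with earlier results of these data known. The named genes are the 15 highest and 15 lowest at 5 scaled counts or more, up to 6 per direction at 0 in 1 tumor, all list members past 2-fold, the highest, lowest and first member of a list or role, ligands, receptors and sensors, up to 10 per direction shared with the cultures, and genes with a printed promoter; marker genes and those said to be chosen later are extra, and some genes that meet the rule are not reported here. Promoters and gene positions come from RefSeq GRCh38.p14, which is not the build of the files, so they were matched by symbol. Transcript lengths come from GENCODE v29 and stand in for the protein lengths that were planned.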

Additional observations from a re-analysis of the deposited data

How the results depend on the processing

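With 1 library per group the differences have no replicate check, and the intervals cover counting error only; tumor, animal, dissection and histological type cannot be told apart. No paired analysis was possible because each group has 1 library and none can be left out. A gene near 1 scaled count rests on about 6 to 7 fragments, so 2-fold at that level is within counting error. The number of genes past 2-fold depended on the pseudocount: 478 higher and 692 lower with 0.1, and 114 higher and 101 lower with 5, where 53.02% of the genes past 2-fold were higher, against 43.7% with a pseudocount of 1. With a filter of 5 scaled counts, 192 were higher and 203 lower. With genes of whole fragments only there were 234 and 310, with each library scaled to a total of 1000000 264 and 361, and after centring on the median 273 and 359. The filter at 1 scaled count leaves these counts as they are by construction. With a pseudocount of 0.1 the mucin, S100 and CEACAM list had 6 genes past 2-fold lower, the xenobiotic list 8, the complement list 5, and the Wnt list 7 higher. The median of the liver-type list was -0.51 with a pseudocount of 5 and -0.53 without a filter on low values. Of 399 list medians under the 7 alternatives, 17 counted as moved under limits of 0.1 on the difference and 1.5 on the ratio, and 382 did not. Those limits are wide. With a pseudocount of 5 the gastrointestinal median was -0.83 and the chemokine median 0.54, against -1.19 and 0.80, and neither counted as moved. None of the 18 lists at 0.3 or more from 0 reversed.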
